A study of Mus musculus with 96 samples.

Results

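The delayed early response of mouse embryonic fibroblasts to serum is described here as the change in RNA between 1 to 1.5 h and 2 to 3 h after serum was added. Its members are 10 of the 96 libraries of the series, chosen by their labelled Cycle and hour, and every gene in the table was measured in them. The later side holds the 6 libraries at 2, 2.5 and 3 h of Cycle 1 and Cycle 2, and the earlier side the 4 libraries at 1 and 1.5 h of the same Cycles. The cells were primary fibroblasts of the CF-1 strain from embryos of day 13, kept for 36 h in 0.5% fetal calf serum and then given 20% serum, with no genetic change and no other agent in any group. Primary fibroblasts of whole embryos are a mixed population rather than a line. The 4 starved libraries, at -1 and 0 h of both Cycles, were used only to place each change against the first wave. Each hour was sampled once in a Cycle, so the replicates at an hour are the 2 Cycles. After a constant offset between the Cycles is removed, SE and p-values measure how the Cycles disagree from hour to hour. They do not measure the spread of the tested difference between the Cycles, and the hours of a Cycle are serial samples.

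Serum growth factors act through receptor tyrosine kinases and actin signalling. The transcription factors SRF, AP-1 and NF-kB then switch on immediate early genes without new protein synthesis. Many of these genes encode transcription factors or short-lived regulators of mRNA and signalling, and their transcripts decay fast. Delayed early genes follow, need proteins made in the first wave, and encode secreted proteins, adhesion molecules, feedback inhibitors and the machinery of growth.

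The depth of the 10 libraries, recovered from the value of 1 read, was 10534100 to 13890600 reads, and the table lists 15895 genes. A value is the reads of a gene in a library scaled to the same total, and it is not divided by gene length, so levels are compared between libraries and not between genes. Reads of both strands were counted together, so a gene and its antisense partner cannot be told apart. In the table all 10 fibroblast markers were present, and their summed value was 369004 to 499603 at 1 to 1.5 h and 330395 to 448949 at 2 to 3 h. Of the markers of other cell types, Nes (mean 663 to 1598) and Sox2 (4.52 to 11.5) of the neural list and Tnnt2 (42.5 to 92.0) of the muscle list rose between the sides, and no endothelial, leukocyte, erythroid, epithelial or adipocyte marker was called by limma. The rest of the neural list went both ways and was not called. On the log2 scale Tubb3 had a difference of -0.73, Map2 of -0.59, Gfap of -0.07 and Sox10 of 0.92. The part of these cells in the results was not tested. Fewer cells of a type and less RNA per cell cannot be told apart in these bulk samples.

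The libraries labelled 0 h stood apart from those labelled -1 h. In both Cycles the 0 h library was more than 1 log2 unit above the -1 h library for 16 of the 21 immediate early transcription factors and for 137 genes in all, and more than 1 below it for 58. The value of Fos was 914 at -1 h and 24883 at 0 h in Cycle 1, and 466 and 15148 in Cycle 2. The value of Fosb was 55.6 and 17294 in Cycle 1, and 31.5 and 9099 in Cycle 2. Immediate early RNA was thus already high in the libraries labelled 0 h, although 0 h is the time of serum addition by the labels. The comparison of 2 to 3 h with 1 to 1.5 h does not use these libraries, and the class counts are given with and without them. Other values set against the starved cells use the mean of -1 and 0 h unless -1 h alone is named.

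Between 1 to 1.5 h and 2 to 3 h, 571 genes rose and 975 fell, which is 3.59% and 6.13% of the 15895 genes and 9.73% together. A gene was called when its adjusted p from limma was under 0.05 and its mean within-Cycle difference of log2(value + 1) was above 1 in size. All 1546 called genes had the same direction in both Cycles, and 326 rises and 523 falls were past 1 in each Cycle on its own. The libraries of the later side did not overlap those of the earlier side within either Cycle for 494 of the rises and 839 of the falls, where 11.5% of all genes were wholly above and 23.6% wholly below. Over both Cycles this held for 312 rises and 553 falls, against 6.29% and 11.1% of all genes. Among the 10368 genes with a mean value of at least 50, 320 rose and 443 fell. The balance of rises and falls depends on the scaling. The median difference of all genes was -0.16 as deposited, and it was -0.06 after median of ratios scaling, where 705 genes rose and 704 fell, and -0.04 after TMM scaling, where 736 rose and 669 fell. Falls were therefore 63.1% of the calls as deposited, 50.0% after median of ratios scaling and 47.6% after TMM scaling.

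The 2 Cycles were also compared directly. No gene passed an adjusted p of 0.05 in the limma test of the difference between Cycles, with 934 genes at an unadjusted p under 0.05, which is 5.88% of all, and a lowest adjusted p of 0.0953. That test treats the hours of a side as the same, so change within a side adds to its residual. It therefore does not show that the Cycles agree. Taken alone, with 2 libraries against 3, Cycle 1 called 1 gene and Cycle 2 none by limma, with 4986 and 4773 genes at an unadjusted p under 0.05. The called genes had a median difference of 0.47 between the Cycles in size, on the log2 scale, and a median SE of 0.19.

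**Figure D1:**
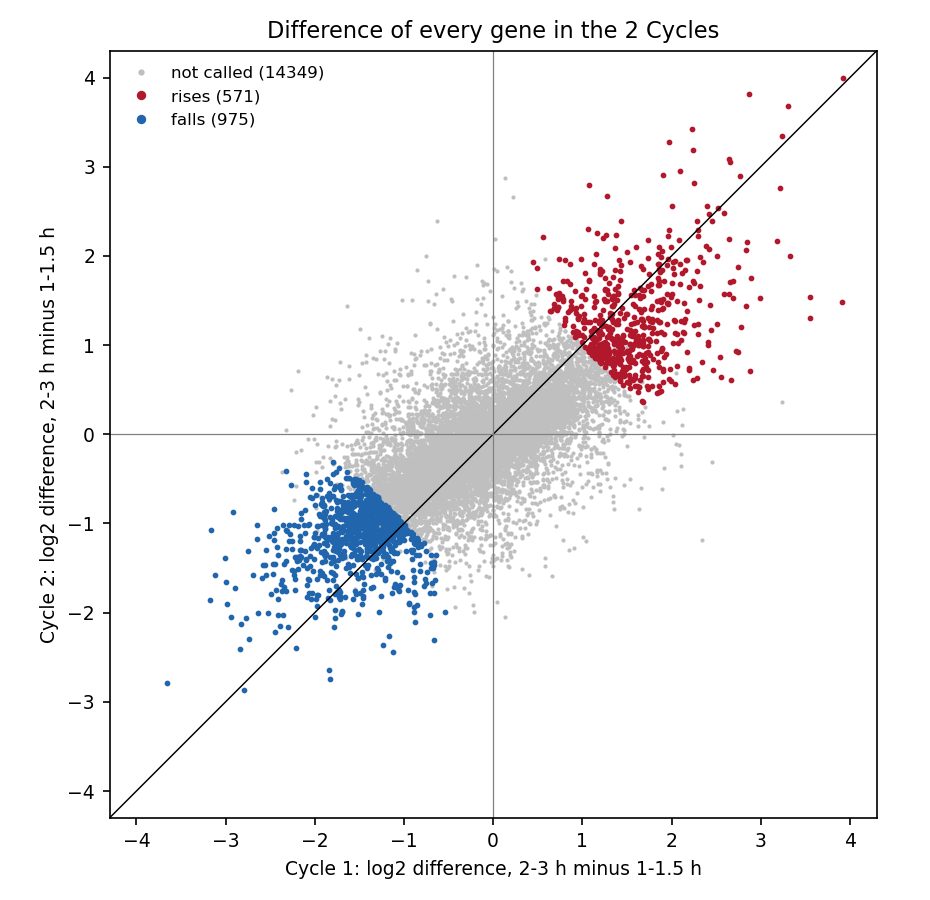
Each point is 1 gene, with its log2 difference between 2-3 h and 1-1.5 h in Cycle 1 on the x axis and in Cycle 2 on the y axis. The 571 rises (red) and the 975 falls (blue) all lie in the quadrants where both Cycles moved the same way, the 14349 other genes are grey, and the line marks equal differences.

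The called genes were then sorted by what they did in the first wave, that is from the starved cells to 1 to 1.5 h, where limma called 553 rises (3.48% of genes) and 770 falls (4.84%) in the same table. The first wave and the later difference share the 1 and 1.5 h libraries, so a high value there lowers the one and raises the other, and the classes are a description with no test. Of the 571 rises, 367 were anew (first-wave difference within 1 of 0, by size alone), 117 continued a first-wave rise and 87 came after a first-wave fall. Of the 975 falls, 827 were anew, 90 continued a first-wave fall and 58 fell back from a first-wave rise. Against the -1 h libraries alone the counts were 335, 130 and 106 rises and 805, 97 and 73 falls, and 325 rises and 791 falls were anew under either baseline. With both starved hours as the baseline, 283 of the 367 rises anew were also called against the starved cells at 2 to 3 h. Of the 827 falls anew, 736 were also called below the starved cells. A gene called anew can thus be one that returned from a smaller first-wave change.

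The classes followed different courses. On the log2 scale, the median rise anew stood 1.03 above the 1 to 1.5 h level by 2 h and 1.34 above by 2.5 h, then 1.57 and 1.62 at the 3 and 4 h samples. The median fall anew had sizes of 0.95, 1.26, 1.53 and 1.42 in the same order of hours. At 4 h, 321 of the 367 rises anew and 612 of the 827 falls anew were still past 1. Genes that fell back had a median first-wave rise of 1.68 and stood a median of 0.19 above the starved cells at 2 to 3 h, with 50 of 58 within 1 of the starved level. Against -1 h alone these medians were 1.90 and 0.51, and 48 of 73 were within 1. The rises after a first-wave fall had a median first-wave difference of -1.64, and at 2 to 3 h they stood at -0.30 from the starved level, with 72 of 87 within 1 of it. A difference above 1 in both Cycles was first reached at 2, 2.5 and 3 h by 181, 167 and 131 rises and by 235, 328 and 282 falls.

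**Figure D2:**
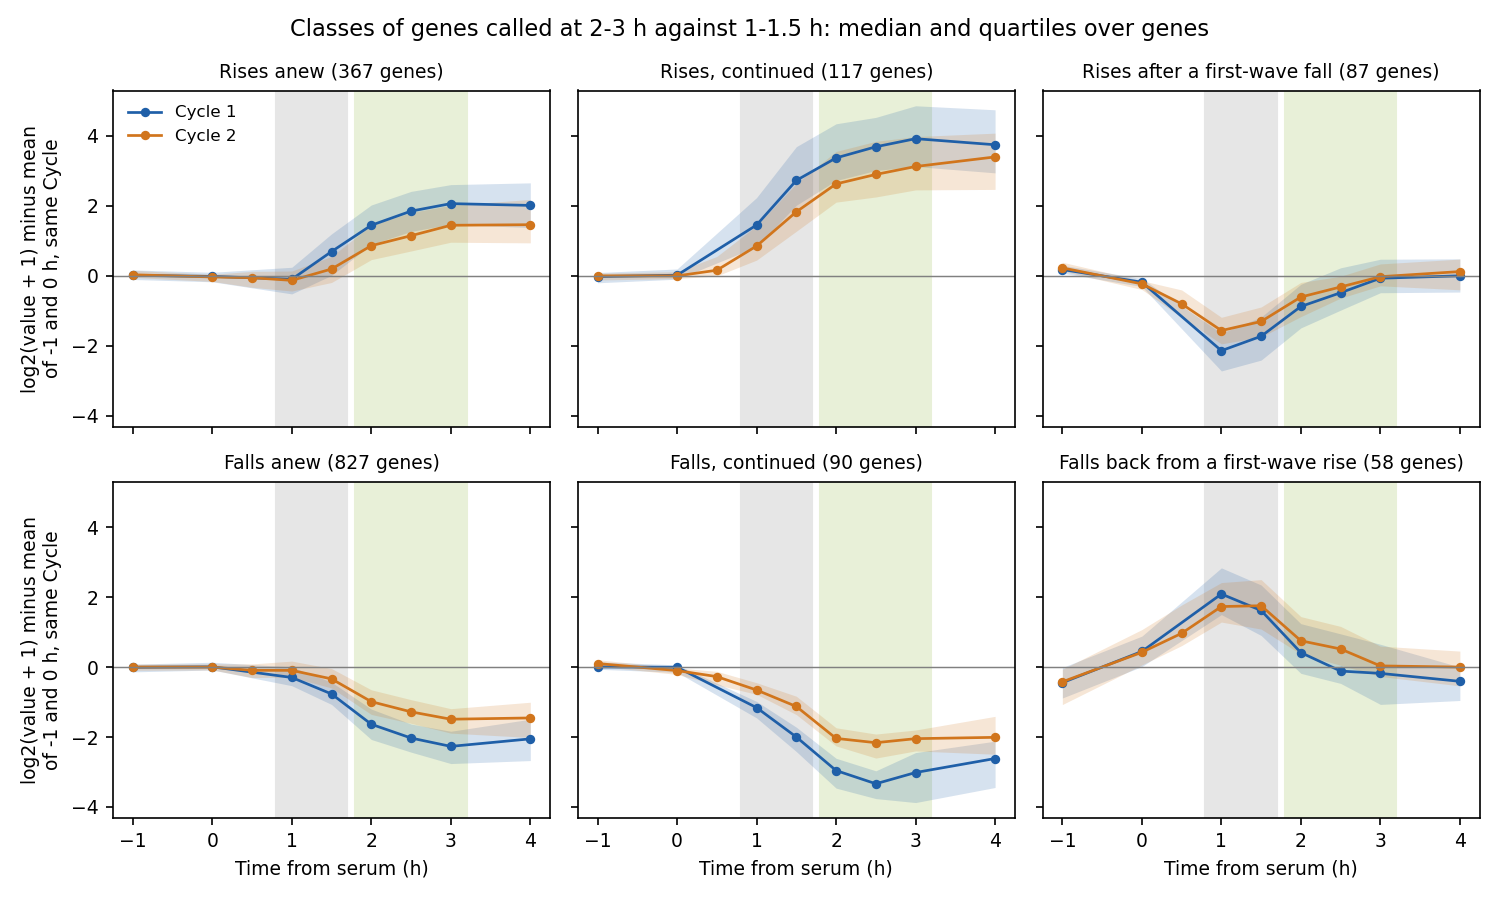
Median (line) and quartiles (band) over the genes of each class of log2(value + 1) minus the mean of the -1 and 0 h libraries of the same Cycle, by hour from serum, for Cycle 1 (blue) and Cycle 2 (orange), with the 1-1.5 h side in grey and the 2-3 h side in green. Rises anew have medians of -0.10 and -0.13 at 1 h in Cycle 1 and Cycle 2, and already of 0.69 and 0.20 at 1.5 h. Falls anew have medians of -0.30 and -0.09 at 1 h, and of -0.77 and -0.34 at 1.5 h. The continued falls are lowest at 2.5 h (medians -3.34 and -2.16), and the classes on the right turn back towards 0 from 1 to 1.5 h on.

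Secreted proteases, cytokines and growth factors held both rises and falls. The counts of this and every later list stand beside 3.59% rises and 6.13% falls over all genes. Counts by edgeR stand beside 760 rises and 776 falls among the 15895 genes. Counts at an unadjusted p under 0.05 from limma stand beside 2680 genes up and 5679 down. Over all genes the difference was above 0 for 5834 and below 0 for 10053. In the plasminogen and metalloproteinase list 5 of 23 genes rose (21.7%) and 3 fell (13.0%). In the cytokine and chemokine list 7 of 32 rose (21.9%) and 6 fell (18.8%). Of the EGF family ligands and receptors 3 of 11 rose (27.3%). Serpinb2 (NCBIM37 chr1:109408000-109432055, plus strand) encodes PAI-2, an inhibitor of urokinase. Its value was 50.6 at 1 h and 238 at 1.5 h in Cycle 1 and 91.2 and 352 in Cycle 2, against 457, 668 and 1122 at 2, 2.5 and 3 h in Cycle 1 and 1037, 1410 and 2298 in Cycle 2. All 6 later values lay above all 4 earlier ones, and the log2 rise was 2.86 (SE 0.11, adjusted p = 0.000847 from limma), a 7.24-fold change. The urokinase receptor gene Plaur rose by 1.65 and the metalloproteinase inhibitor gene Timp1 by 1.05, both on the log2 scale and both continuing a first-wave rise.

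Il11 (chr7:4724669-4734460, minus strand) encodes a cytokine of the gp130 family that fibroblasts secrete. Its value was 105 and 457 at 1 and 1.5 h in Cycle 1 and 109 and 402 in Cycle 2, and it reached 719, 916 and 970 at the later hours of Cycle 1 and 1282, 2185 and 3016 in Cycle 2. The groups did not overlap, and the log2 rise was 2.62 (SE 0.30, adjusted p = 0.00279 from limma), with 1.97 in Cycle 1 and 3.27 in Cycle 2. Inhba, which encodes the activin A subunit, rose by 1.99, and Il1rl1, which encodes the IL-33 receptor and its soluble decoy, by 1.97. For Inhba the value of 1608 at 1.5 h in Cycle 1 was above the 1149 at 2 h, so that its groups overlapped. Mmp10, a stromelysin gene, had values of 16.7 to 46.0 at 1 to 1.5 h and 58.9 to 201 at 2 to 3 h in Cycle 1, and of 18.7 to 76.6 and 182 to 492 in Cycle 2, a log2 rise of 2.40 (SE 0.23, adjusted p = 0.00211 from limma). The EGF receptor ligand gene Areg went from 122 and 539 to 855, 1008 and 1275 in Cycle 1 and from 40.04 and 118 to 277, 392 and 640 in Cycle 2, a log2 rise of 2.28 (SE 0.17, adjusted p = 0.00158 from limma). Tgfa, another ligand of that receptor, rose by 1.48, while Hbegf had a difference of 0.59 and Ereg of -0.25, neither past the size called. Epgn was called at 1.38, but its values were 0 to 6.46 in all 10 libraries, a few reads each.

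The stretch before the start site of 4 of these rises is shown because it holds the letters of an AP-1 site (TGANTCA, where N is any base), the element bound by the Fos and Jun proteins of the first wave. The sequences are the 250 bases before a RefSeq start site in GRCm38.p6, a later build than that of the counts, written 5′ to 3′ along the gene with the matches in capitals. For Serpinb2 the window is chr1:107511173-107511422 (plus strand) with the match 94 bases before the start, for Il11 chr7:4778142-4778391 (minus strand) with the match at 98, for Mmp10 chr9:7502092-7502341 (plus strand) with the match at 63, and for Srxn1, the sulfiredoxin gene described below, chr2:152105274-152105523 (plus strand) with matches at 102 and 45.
Serpinb2 and Il11 have 2 windows each, of which 1 is shown. The other window of Serpinb2 holds the same site at 181 and the other of Il11 holds none.
Serpinb2: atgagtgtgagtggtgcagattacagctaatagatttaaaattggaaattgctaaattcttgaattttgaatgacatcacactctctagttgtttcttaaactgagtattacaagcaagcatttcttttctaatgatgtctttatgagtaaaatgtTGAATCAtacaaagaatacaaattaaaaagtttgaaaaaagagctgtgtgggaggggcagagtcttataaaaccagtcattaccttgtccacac
Il11: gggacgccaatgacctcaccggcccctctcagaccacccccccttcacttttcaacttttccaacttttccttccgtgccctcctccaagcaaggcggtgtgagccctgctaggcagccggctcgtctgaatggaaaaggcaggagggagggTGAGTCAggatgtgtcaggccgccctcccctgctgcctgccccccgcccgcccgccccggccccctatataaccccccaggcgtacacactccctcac
Mmp10: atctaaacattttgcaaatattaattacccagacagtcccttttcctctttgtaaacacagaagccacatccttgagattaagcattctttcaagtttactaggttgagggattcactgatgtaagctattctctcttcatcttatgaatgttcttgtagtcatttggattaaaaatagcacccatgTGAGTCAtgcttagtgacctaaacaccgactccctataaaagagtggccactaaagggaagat
Srxn1: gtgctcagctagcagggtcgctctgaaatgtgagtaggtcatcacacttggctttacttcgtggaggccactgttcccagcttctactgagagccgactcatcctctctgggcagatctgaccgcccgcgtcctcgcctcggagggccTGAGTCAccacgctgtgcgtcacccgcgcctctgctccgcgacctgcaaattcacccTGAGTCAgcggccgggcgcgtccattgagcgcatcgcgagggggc

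Promoter windows from RefSeq, 250 bases before to 50 after a start, were found for 12378 of the 15895 genes, and each was searched on both strands. The AP-1 letters stood in 17.1% of 111 windows of the continued rises and in 11.5% of 364 windows of the rises anew, against 5.77% of 15616 windows of all genes in the table, 5.35% of 822 windows of the falls anew, 10.9% of 55 windows of the falls back from a first-wave rise and 3.70% of 81 windows of the rises after a first-wave fall. With classes taken against -1 h alone these shares were 19.0% for continued rises, 10.9% for rises anew and 9.86% for falls back. The cyclic AMP response element (TGACGTCA) stood in 1.92% of the windows of the rises anew and 2.79% of all, the E-box (CACGTG) in 10.4% and 9.44%, the SP1 site (GGGCGG) in 53.3% and 58.7%, and the CArG box of SRF in 2.20% and 1.34%. A match describes the letters of a window and no binding.

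**Figure D3:**
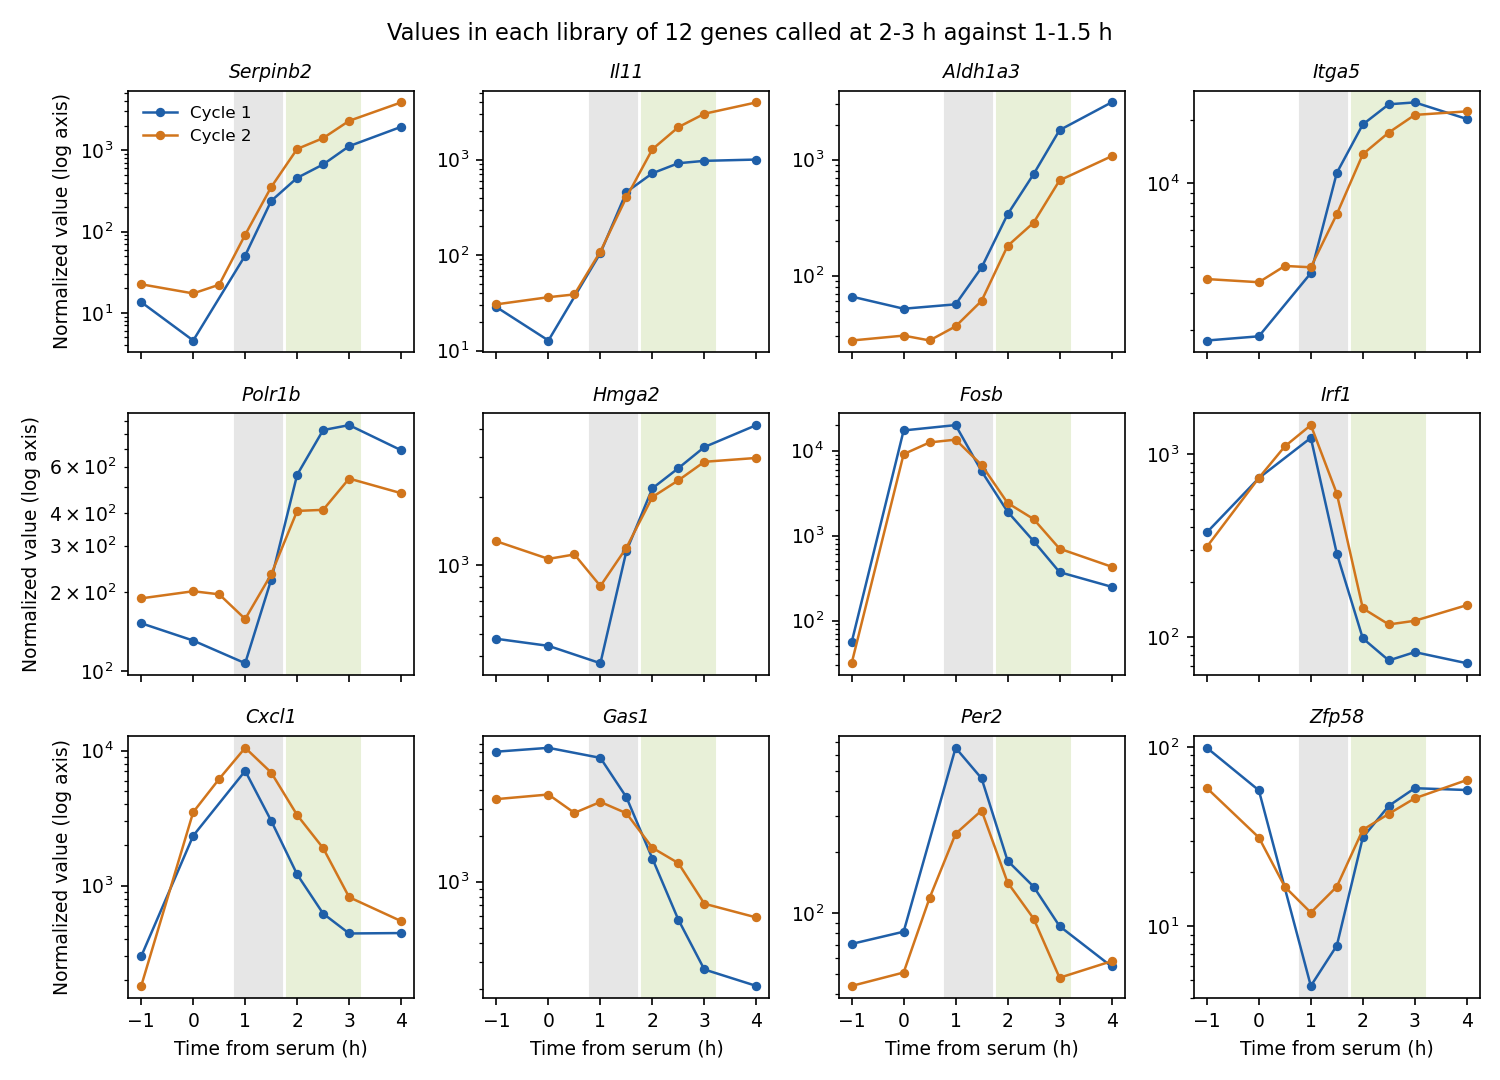
Normalized value of 12 called genes (log axis) in each library by hour from serum, for Cycle 1 (blue) and Cycle 2 (orange), with the 1-1.5 h side in grey and the 2-3 h side in green. Serpinb2 climbs to 1122 and 2298 at 3 h, Fosb drops to 371 and 702 at 3 h, and Zfp58 dips at 1 h and climbs again by 3 h.

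Adhesion receptors and the provisional matrix that cells lay down after injury held 6 rises among 17 genes and no called fall, with 5 at an unadjusted p under 0.05 in the downward direction. Itga5 (chr15:103174720-103197194, minus strand), the fibronectin receptor subunit, had values of 3736 and 11176 at 1 and 1.5 h and of 18968, 23644 and 24133 at 2, 2.5 and 3 h in Cycle 1. In Cycle 2 they were 3982 and 7113, then 13695, 17365 and 21051. Every later library was above every earlier one, and the log2 rise was 1.73 (SE 0.12, adjusted p = 0.00157 from limma). The vitronectin receptor subunit gene Itgb3 rose anew by 1.70, with a first-wave difference of -0.07, and the tenascin gene Tnc rose anew by 1.35. Itga2 (1.23), the hyaluronan receptor gene Cd44 (1.06) and the hyaluronan synthase gene Has3 (1.05) completed the list. Itga2 had a first-wave difference of -0.81. At 2 to 3 h it stood 0.42 above the starved level (adjusted p = 0.172 from limma). Fibronectin itself (Fn1, 0.04), Thbs1 (0.12) and Has2 (-0.02) had differences near 0 on the log2 scale. Of the Yap and Taz targets 2 of 13 rose, Nuak2 by 1.88 and Ctgf by 1.28, and Ctgf went on from a highest value of 25386 at 3 h to 33478 and 39467 at 4 h in the 2 Cycles. Of the Tgf-beta list 2 of 20 rose (10%), the ligand gene Tgfb1 by 1.41 and the signal transducer gene Smad3 by 1.55. Tgfb1 continued a first-wave rise.

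Genes are named by a rule of size, list and class (given with the processing), and a few other list members were named after their values were seen. Several large rises were in genes outside these lists. Aqp3 (chr4:41039755-41045216, minus strand), a water and glycerol channel gene, had the largest log2 rise among genes with a mean of at least 50, 3.50 (SE 0.14, adjusted p = 0.000847 from limma). Its value went from 55.8 and 534 at 1 and 1.5 h to 1329, 1746 and 2214 in Cycle 1 and from 5.11 and 36.6 to 140, 182 and 286 in Cycle 2. Within each Cycle the groups did not overlap, but the highest later value of Cycle 2 lay below the 1.5 h value of Cycle 1, and without Cycle as a block the gene was not called. Sema7a, a membrane-anchored semaphorin gene, rose by 2.83 (SE 0.09, adjusted p = 0.000643 from limma) and the myosin light chain kinase gene Mylk2 by 2.53 (SE 0.07, adjusted p = 0.000545 from limma), both continuing a first-wave rise with non-overlapping groups. The desmosomal plakophilin gene Pkp1 rose by 3.29 and was likewise not called without the block. It counted as continued against both starved hours, with a first-wave difference of 1.19, and as anew against -1 h alone, with 0.99.

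Among the rises anew, Aldh1a3 (chr7:73535778-73572403, minus strand), a retinaldehyde dehydrogenase gene of retinoic acid synthesis, had values of 56.7 and 118 at 1 and 1.5 h in Cycle 1 and then 338, 750 and 1797. In Cycle 2 the values were 36.6 and 60.8, then 181, 286 and 663. The starved values were 66.1 and 52.0 in Cycle 1 and 27.7 and 30.5 in Cycle 2. At 1 h the gene was thus within its starved range in Cycle 1 and a little above it in Cycle 2. Its log2 rise was 2.99 (SE 0.14, adjusted p = 0.00093 from limma). It went on to 3113 and 1069 at 4 h. The receptor adaptor gene Dok5 rose by 2.68, the ubiquitin ligase gene Trim9 by 2.83, the NAD synthesis gene Nmnat2 by 2.53, the MAP kinase phosphatase gene Dusp9 by 2.50, the Rap1 inhibitor gene Rap1gap2 by 2.45 and the nucleotide receptor gene P2ry2 by 2.31. All had first-wave differences between -0.05 and 0.89 and reached a difference above 1 in both Cycles by 2 h. Fibcd1, a chitin-binding receptor gene, rose by 3.35 and was anew against both starved hours (first-wave difference 0.91) but continued against -1 h alone (1.13).

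RNA of the nucleolar ribosome biogenesis genes shifted upwards as a list, and ribosome production itself was not measured. Of 49 nucleolar ribosome biogenesis genes, 11 rose and none fell, by limma (15 and none by edgeR). With adjusted p alone from limma, 45 of 49 were higher at 2 to 3 h and none was lower. Over all 15895 genes these counts were 2176 and 4726. None of the 49 had an unadjusted p under 0.05 in the downward direction. All 49 had a difference above 0, from 0.11 to 1.74, with a median of 0.71 against -0.16 for all genes. Their median first-wave difference was 0.10, and all 11 rises were anew. Polr1b (chr2:128926731-128952330, plus strand), the second largest subunit of RNA polymerase I, had values of 107 and 222 at 1 and 1.5 h and of 559, 828 and 865 at 2 to 3 h in Cycle 1. In Cycle 2 they were 158 and 233, then 407, 411 and 541, with no overlap between the sides and a log2 rise of 1.74 (SE 0.24, adjusted p = 0.00427 from limma). The rRNA methyltransferase gene Nop2 rose by 1.40, the ribosomal protein chaperone gene Grwd1 by 1.28, the small subunit factor gene Rrp9 by 1.19 and Heatr1 by 1.18. Nucleolin (Ncl, 0.49), fibrillarin (Fbl, 0.50) and nucleophosmin (Npm1, 0.26) were higher with adjusted p = 0.03, 0.024 and 0.041 from limma but below the size called. The median of the list stood 1.39 above the starved level at 3 h in Cycle 1 and 0.61 in Cycle 2. Of 84 cytosolic ribosomal protein rows only a pseudogene, Rps19-ps3, rose, at values of 0.85 to 15.1, and reads of pseudogenes can be shared with the parent gene.

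Feedback inhibitors of MAP kinase signalling went both ways. Of 19 such genes 4 rose (21.1%), Spred2 by 1.39, Dusp4 by 1.25, Dusp7 by 1.21 and Spred1 by 1.13, and Dusp8 and Dusp16 fell (10.5%). Dusp9, given above with a larger rise of 2.50, is not among the 19. Dusp7 was anew against both starved hours, with a first-wave difference of -0.97. Against -1 h alone it rose after a first-wave fall of -1.24. Dusp4, an ERK phosphatase gene, had its highest value of the 5 libraries of Cycle 1, 3390, already at 1.5 h, and stood at 2922, 2876 and 2428 afterwards, while in Cycle 2 it went from 431 and 1770 to 2952, 2800 and 2854. Dusp8, a phosphatase gene for JNK and p38, fell from 177 and 42.1 to 16.1, 17.6 and 33.8 in Cycle 1 and from 186 and 92.4 to 40.6, 33.2 and 54.6 in Cycle 2 (log2 -1.80, SE 0.19, adjusted p = 0.0024 from limma), and was back at 115 and 118 at 4 h. Of 23 transcription factors of the delayed response, the chromatin proteins Hmga2 (1.66) and Hmga1 (1.06) rose and the repressors Bhlhe40 (-1.16) and Nfil3 (-1.10) fell. These were 8.70% of the list each way. Hmga2 (chr10:119798331-119913525, minus strand) had values of 371 and 1155 and then 2183, 2679 and 3318 in Cycle 1, and of 811 and 1195 and then 1999, 2368 and 2858 in Cycle 2. The later 6 values lay above the earlier 4, and SE and adjusted p from limma were 0.22 and 0.00399. The AP-1 subunit Fosl1 had a difference of 0.62 and Fosl2 of -0.40, neither called. Of 13 stress and antioxidant genes 3 rose, Nqo1 by 1.55, Srxn1 by 1.28 and Hmox1 by 1.06, all continuing a first-wave rise, and Srxn1 reached 22133 at 2.5 h in Cycle 1 and 13489 in Cycle 2. Among receptors, the VEGF receptor gene Flt1 rose by 1.87, Met, the receptor gene for hepatocyte growth factor, by 1.34 and Fgfr1 by 1.11, all anew.

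The immediate early transcription factors were lower at 2 to 3 h. All 21 had a difference below 0, against 10053 of all 15895 genes. The list median was -0.81, and 8 of the 21 were called, Fosb, Egr4, Fos, Atf3, Egr1, Egr3, Klf2 and Klf4. Fosb (chr7:19888070-19895394, minus strand), an AP-1 subunit, had values of 19980 and 5717 at 1 and 1.5 h and of 1912, 862 and 371 at 2 to 3 h in Cycle 1, and of 13482 and 6772 and then 2421, 1566 and 702 in Cycle 2. The sides did not overlap, and the log2 fall was -3.22 (SE 0.23, adjusted p = 0.00157 from limma). At 2 to 3 h it was still 4.66 above the -1 h level, and 0.57 above the mean of -1 and 0 h. Fos fell by 2.33 (SE 0.13, adjusted p = 0.00135 from limma), from 5632 and 672 to 424, 366 and 292 in Cycle 1 and from 5981 and 1207 to 617, 636 and 489 in Cycle 2, but its fall was no longer called against the 1.5 h libraries alone. Its first-wave value was -0.64 against both starved hours and 1.81 against -1 h alone, so that it counted as a fall anew in the first and as a fall back in the second. Egr1, a zinc finger factor, fell by 1.85 and Atf3 by 2.00. Myc (-0.81), Jun (-0.77), Junb (-0.81) and Egr2 (-0.68) were lower at adjusted p = 0.00246, 0.00174, 0.0117 and 0.003 from limma without reaching the size called. Srf itself had a difference of -0.07 (adjusted p = 0.51 from limma). At 2 to 3 h 16 of the 21 were still called above the -1 h libraries, and 9 above the mean of -1 and 0 h.

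Regulators that limit inflammation and mRNA life were among the falls. Of 15 NF-kB subunits and feedback genes 6 fell and none rose, by limma, with 1 at an unadjusted p under 0.05 upwards, edgeR called 5 falls and no rise, and 5 of the 6 had risen in the first wave. Tnfaip3 (chr10:18720716-18735463, minus strand), the ubiquitin-editing inhibitor A20, had values of 1997 and 436 and then 206, 195 and 203 in Cycle 1, and of 5341 and 1999 and then 875, 615 and 442 in Cycle 2. Within each Cycle the sides did not overlap, and the log2 fall was -2.30 (SE 0.18, adjusted p = 0.00158 from limma). Rel, an NF-kB subunit, fell by 2.04, Nfkbiz by 1.79, Birc3 by 1.48 and the inhibitor genes Nfkbia and Nfkbie by 1.15 and 1.03. The chemokine gene Cxcl1 (chr5:91320267-91322141, plus strand) fell by 2.52 (SE 0.17, adjusted p = 0.00157 from limma), from 7072 and 3021 to 1208, 619 and 441 in Cycle 1 and from 10483 and 6875 to 3327, 1894 and 819 in Cycle 2. Cxcl2 fell by 1.63, Tnf by 1.56 and Ccl7 by 1.36, and Ccl2 had a difference of -0.40 that was not called. Of 11 mRNA decay and antiproliferative genes 4 fell, Zfp36, which encodes the AU-rich element binding protein tristetraprolin, by 1.74 (SE 0.14, adjusted p = 0.00158 from limma), Zfp36l1 by 1.33, Pnrc1 by 1.13 and Tob1 by 1.03. Tob1 was not called when any library of Cycle 1 was left out or after median of ratios or TMM scaling.

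The stretch before the start site of 3 of these genes is shown because it holds the letters of an NF-kB site on either strand, searched as 2 patterns that can overlap each other, again as the 250 bases before a RefSeq start in GRCm38.p6 with matches in capitals. For Cxcl1 the window is chr5:90890995-90891244 (plus strand), with overlapping NF-kB matches from 71 bases before the start and another at 89. For Tnfaip3 it is chr10:19015411-19015660 (minus strand), with the NF-kB match at 12, an E-box at 33 and AP-1 letters at 136, while its other window, chr10:19011964-19012213, holds none of the letters searched, and for Rel chr11:23770970-23771219 (minus strand), with the match at 91.
Cxcl1: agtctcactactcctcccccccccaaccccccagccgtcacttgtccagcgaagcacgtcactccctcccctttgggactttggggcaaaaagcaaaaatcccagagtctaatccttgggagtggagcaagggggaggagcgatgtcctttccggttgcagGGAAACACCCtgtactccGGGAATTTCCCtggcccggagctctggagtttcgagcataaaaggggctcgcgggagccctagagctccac
Tnfaip3: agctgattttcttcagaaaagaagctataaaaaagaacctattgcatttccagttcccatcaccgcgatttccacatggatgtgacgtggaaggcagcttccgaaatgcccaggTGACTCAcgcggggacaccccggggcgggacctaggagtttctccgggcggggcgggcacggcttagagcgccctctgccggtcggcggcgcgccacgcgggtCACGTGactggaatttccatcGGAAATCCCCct
Rel: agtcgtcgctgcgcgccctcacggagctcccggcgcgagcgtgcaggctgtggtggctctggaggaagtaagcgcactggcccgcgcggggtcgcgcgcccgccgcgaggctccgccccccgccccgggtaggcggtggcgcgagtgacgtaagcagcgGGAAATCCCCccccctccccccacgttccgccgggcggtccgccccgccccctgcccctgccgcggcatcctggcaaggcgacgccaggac

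These NF-kB letters stood in 9 of 55 windows, 16.4%, of the genes that fell back from a first-wave rise, and in 2.68% of the windows of all genes in the table, 2.43% of those of the falls anew and 3.30% of those of the rises anew. With the classes taken against -1 h alone they stood in 9 of 71 windows, 12.7%, of the falls back.

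Most falls were anew, with a median first-wave difference of -0.37. Gas1 (chr13:60275766-60278726, minus strand), named for its expression in growth-arrested cells, had values of 6449 and 3569 at 1 and 1.5 h and of 1418, 565 and 267 at 2 to 3 h in Cycle 1, and of 3323 and 2804 and then 1667, 1323 and 718 in Cycle 2. All later values were below all earlier ones, and the log2 fall was -2.19 (SE 0.39, adjusted p = 0.00788 from limma), with a first-wave difference of -0.42. Of 24 FoxO targets and quiescence genes 9 fell and none rose, by limma or edgeR, with 1 at an unadjusted p under 0.05 upwards in limma. Of the 9, 5 were anew, 3 continued a first-wave fall and 1 fell back, and among them were the stress sensor genes Sesn3 (-1.88) and Sesn1 (-1.01), Gadd45a (-1.76), Klf15 (-1.85), Foxo3 (-1.42) and the insulin receptor substrate gene Irs1 (-1.61). Klf15 and Irs1 were continued falls. Under median of ratios and TMM scaling 7 and 6 genes of the list fell. Klf15 had a value of 0 at 2 h in Cycle 1 and was not called with a pseudocount of 0.1 or 10. Outside the lists, the zinc finger homeobox gene Zfhx4 fell anew by 2.49 and the GTPase regulator gene Arhgap20 by 2.33, and the Rab regulator gene Rab3il1 continued a first-wave fall of -1.00 by 2.62.

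Irf1 (chr11:53583516-53591876, plus strand), an interferon regulatory factor gene, had the second largest fall of the genes named, -2.83 (SE 0.13, adjusted p = 0.000893 from limma). Its value went from 1228 and 287 to 98.7, 74.8 and 83.0 in Cycle 1 and from 1442 and 609 to 144, 118 and 123 in Cycle 2. These later values lay below the 374 and 312 of the -1 h libraries. It counted as anew against both starved hours, with a first-wave difference of 0.57, and as a fall back against -1 h alone, with 1.12. Of 20 interferon-stimulated genes 5 fell, among them Irf1, Oasl2 (-1.35), Usp18 (-1.32) and Stat2 (-1.20), and none rose or reached an unadjusted p under 0.05 upwards by limma, while edgeR called 6 falls and 1 rise. The starved levels of Oasl2 differed between the Cycles, with 2053 and 1804 in Cycle 1 and 257 and 222 in Cycle 2, and the fall was -1.89 in the first and -0.80 in the second. Oasl2, Stat2 and Usp18 were not called without the 1 h or without the 1.5 h library of Cycle 1.

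The circadian clock genes moved in both directions, as 8 of 19 fell and 2 rose. Per2 (chr1:93312561-93355907, minus strand), a repressor of the clock, had values of 652 and 461 and then 181, 135 and 86.4 in Cycle 1, and of 246 and 321 and then 142, 94.2 and 48.1 in Cycle 2, with no overlap and a log2 fall of -1.89 (SE 0.17, adjusted p = 0.00184 from limma). Its starved values were 43.9 to 81.1, so it fell back from a first-wave rise of 2.69. Cry2 (-1.60) and Bhlhe40 also fell back from first-wave rises, while Dbp (-2.03), Per3 (-1.52) and Npas2 (-1.21) fell with first-wave differences within 1 of 0. Per1 fell as well, anew against both starved hours (first-wave difference 0.76) and as a fall back against -1 h alone (1.26). The activator gene Arntl, which encodes BMAL1, rose by 1.42, from 325 and 986 to 1571, 1699.9 and 1535 in Cycle 1 and from 293 and 612 to 1034, 1084 and 1122 in Cycle 2 (SE 0.10, adjusted p = 0.00157 from limma). Rorb also rose, at values of 0.93 to 11.8.

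Of 28 growth factor receptors and ligands 3 rose, the receptor genes Flt1, Met and Fgfr1 given above, and 3 fell. These were 10.7% each way, where 3.59% of all genes rose and 6.13% fell. Fgf10 fell by 1.52, Fgf21 by 2.12 and the Hedgehog receptor gene Ptch1 by 1.88, the last from a first-wave rise of 1.00. Fgf21 had values down to 0.72 and lost its call in 5 of the 10 fits that left out 1 library. In the Wnt and Notch list 4 of 27 genes fell (14.8%), the receptor genes Fzd2 (-1.63) and Lgr5 (-1.23), Axin2 (-1.32) and Dkk2 (-1.23). In the same list Lef1 (1.73), Wnt11 (1.16) and Jag1 (1.01) rose (11.1%). Of the prostaglandin genes 2 of 12 fell (16.7%), the degrading enzyme gene Hpgd by 2.23 and the receptor gene Ptgfr by 1.89. The cyclooxygenase gene Ptgs2 had a difference of 0.08. The aggrecanase genes Adamts1 (-1.85), Adamts15 (-1.80) and Adamts5 (-1.60) were the 3 falls in the protease list.

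All 20 genes of the mitosis list had a difference below 0, against 10053 of all 15895 genes. The list median was -0.61. Of the 20, 5 fell (4 after either scaling or by edgeR), Cenpf (-1.31), Cenpe (-1.25), Mki67 (-1.21), Bub1b (-1.19) and Ttk (-1.02). With adjusted p alone from limma, 19 of 20 were lower, against 4726 of all 15895 genes. Mki67, a marker of cycling cells, had values of 664 and 471 and then 220, 188 and 211 in Cycle 1, and of 2621 and 2135 and then 1269, 1102 and 1201 in Cycle 2. The level was higher in Cycle 2 throughout, from 3465 at -1 h against 1088 in Cycle 1, and the fall was -1.44 in Cycle 1 and -0.99 in Cycle 2.

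The zinc finger genes whose symbols start with Zfp are many of them C2H2 factors and include the CCCH gene Zfp36 and its relatives. Of 313 such genes measured, 33 rose, 14 fell and 266 were not called, and 30 of the 33 rises came after a first-wave fall. In the first wave 142 of the 313 had fallen and 5 had risen, with a median of -0.94, and against -1 h alone 149 had fallen and 5 had risen, with a median of -1.00. At 2 to 3 h the median was -0.81 from the starved level, and -0.94 from -1 h alone. Zfp58 (chr13:67591103-67627087, minus strand) had values of 99.2 and 57.4 at -1 and 0 h in Cycle 1, of 4.65 and 7.80 at 1 and 1.5 h and of 31.3, 47.1 and 59.0 at 2 to 3 h. In Cycle 2 the values were 59.1 and 31.3, then 11.9 and 16.6, then 34.6, 42.5 and 51.8. The later values all lay above the earlier ones, with a log2 rise of 2.10 (SE 0.25, adjusted p = 0.00319 from limma). Zfp553 rose by 1.81 after a first-wave fall of -1.74. Among the falls, Zfp521 (-2.14) and Zfp395 (-2.03) were anew. The median difference of the list from 1 to 1.5 h to 2 to 3 h was 0.15 as deposited and 0.24 after median of ratios scaling, where 44 rose and 13 fell.

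**Figure D4:**
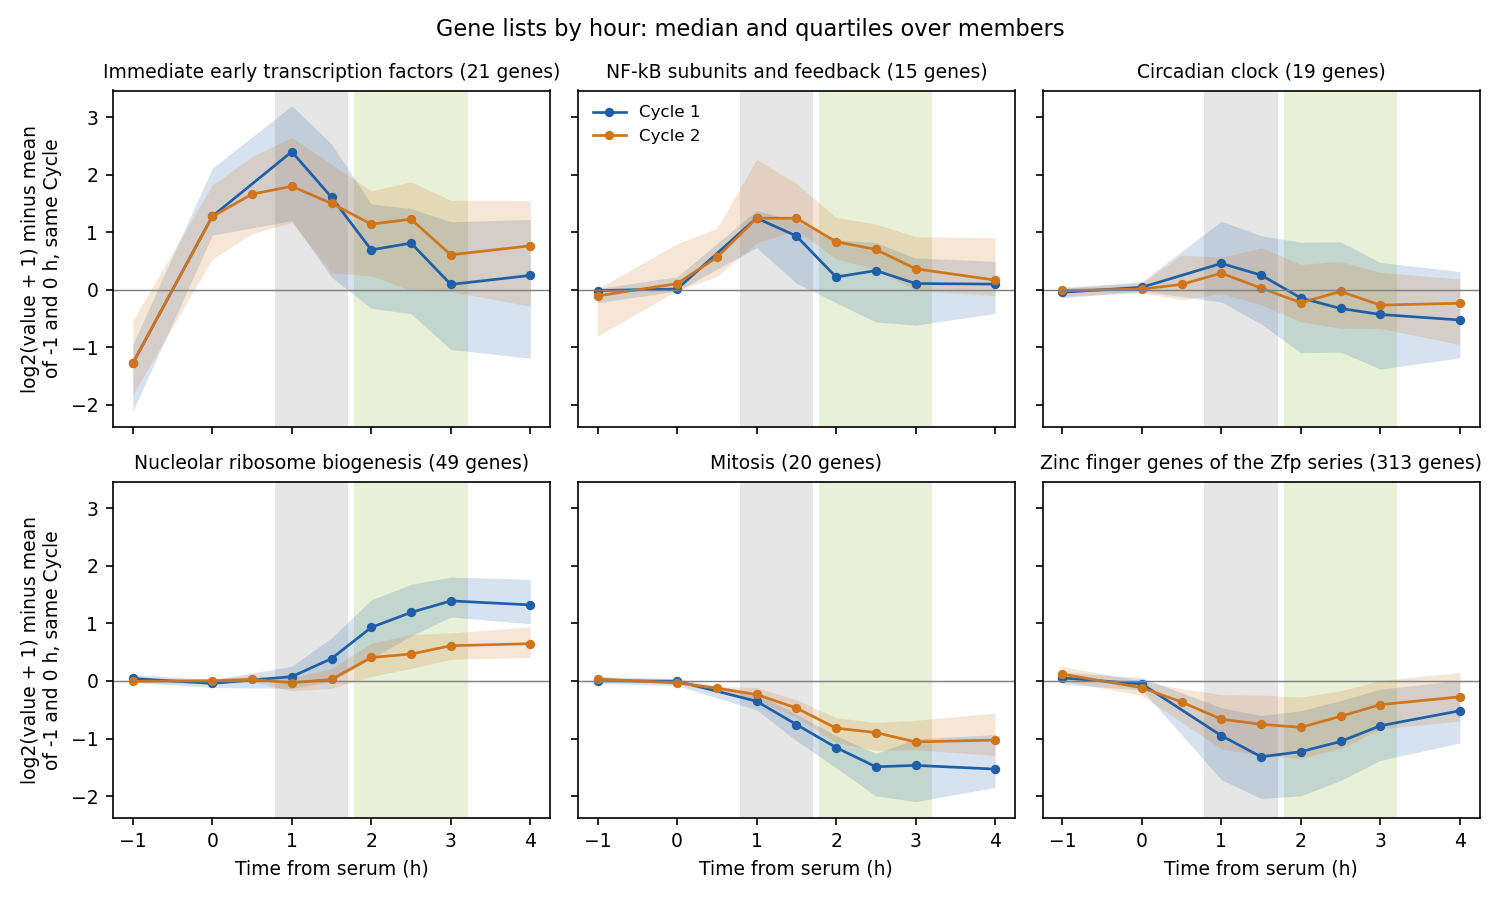
Median (line) and quartiles (band) over the members of 6 gene lists of log2(value + 1) minus the mean of the -1 and 0 h libraries of the same Cycle, by hour from serum, with Cycle 1 in blue and Cycle 2 in orange. The immediate early list is at -1.28 at -1 h and 1.28 at 0 h in Cycle 1, the nucleolar list leaves 0 after 1 h, and the Zfp list has its lowest median, -1.32, at 1.5 h in Cycle 1.

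In the other lists the numbers of called genes were small, and 3.59% of all genes rose and 6.13% fell. At an unadjusted p under 0.05 from limma, 2680 of the 15895 genes were up and 5679 down. By adjusted p alone from limma, 2176 were higher and 4726 lower. The counts below are to be read beside these. The share that fell was 9.09% of the early effectors, 8.33% of the chaperones and 8% of the sterol genes. It was 5.56% of the Atf4 list and 4.76% of the glycolysis genes. Of the early effectors 4.55% rose. None of 29 actin and SRF target genes was called by limma, with 9 at an unadjusted p under 0.05, of which 4 were up and 5 down, and edgeR called none. Among 22 collagen and basement membrane genes none was called by limma or edgeR, with 7 up and 7 down at an unadjusted p under 0.05, and their median was -0.04 as deposited and 0.06 after median of ratios scaling. For 24 DNA replication genes neither test called any, and 1 was up and 11 were down at an unadjusted p under 0.05, led by Tk1 (-0.95). Of 20 G1 cyclins, kinases and inhibitors limma called none, with 4 up and 10 down at an unadjusted p under 0.05, and edgeR called 1 rise. The largest of these differences were Cdkn2c (-0.98) and Cdk6 (0.94), while the cyclin D1 gene Ccnd1 had a difference of -0.16 (adjusted p = 0.39 from limma). Of 22 early effectors 1 rose, Rgs16 (1.23), and Rnd3 (-1.19) and Gadd45b (-1.06) fell. Sesn2 (-1.18) and Trib3 (-1.20) fell in the Atf4 and tRNA synthetase list of 36, Mvk (-1.10) and Scd2 (-1.07) among 25 sterol and SREBP genes (median -0.37, with 16 lower and none higher by adjusted p alone in limma, and 17 lower and 1 higher at an unadjusted p under 0.05), Herpud1 (-1.05) and Hspa1a (-1.03) among 24 chaperones, and Pfkm (-1.07) among 21 glycolysis genes. Gadd45b, Nfil3, Mvk, Scd2, Herpud1, Hspa1a and Pfkm were not called after median of ratios or TMM scaling or by edgeR.

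**Figure D5:**
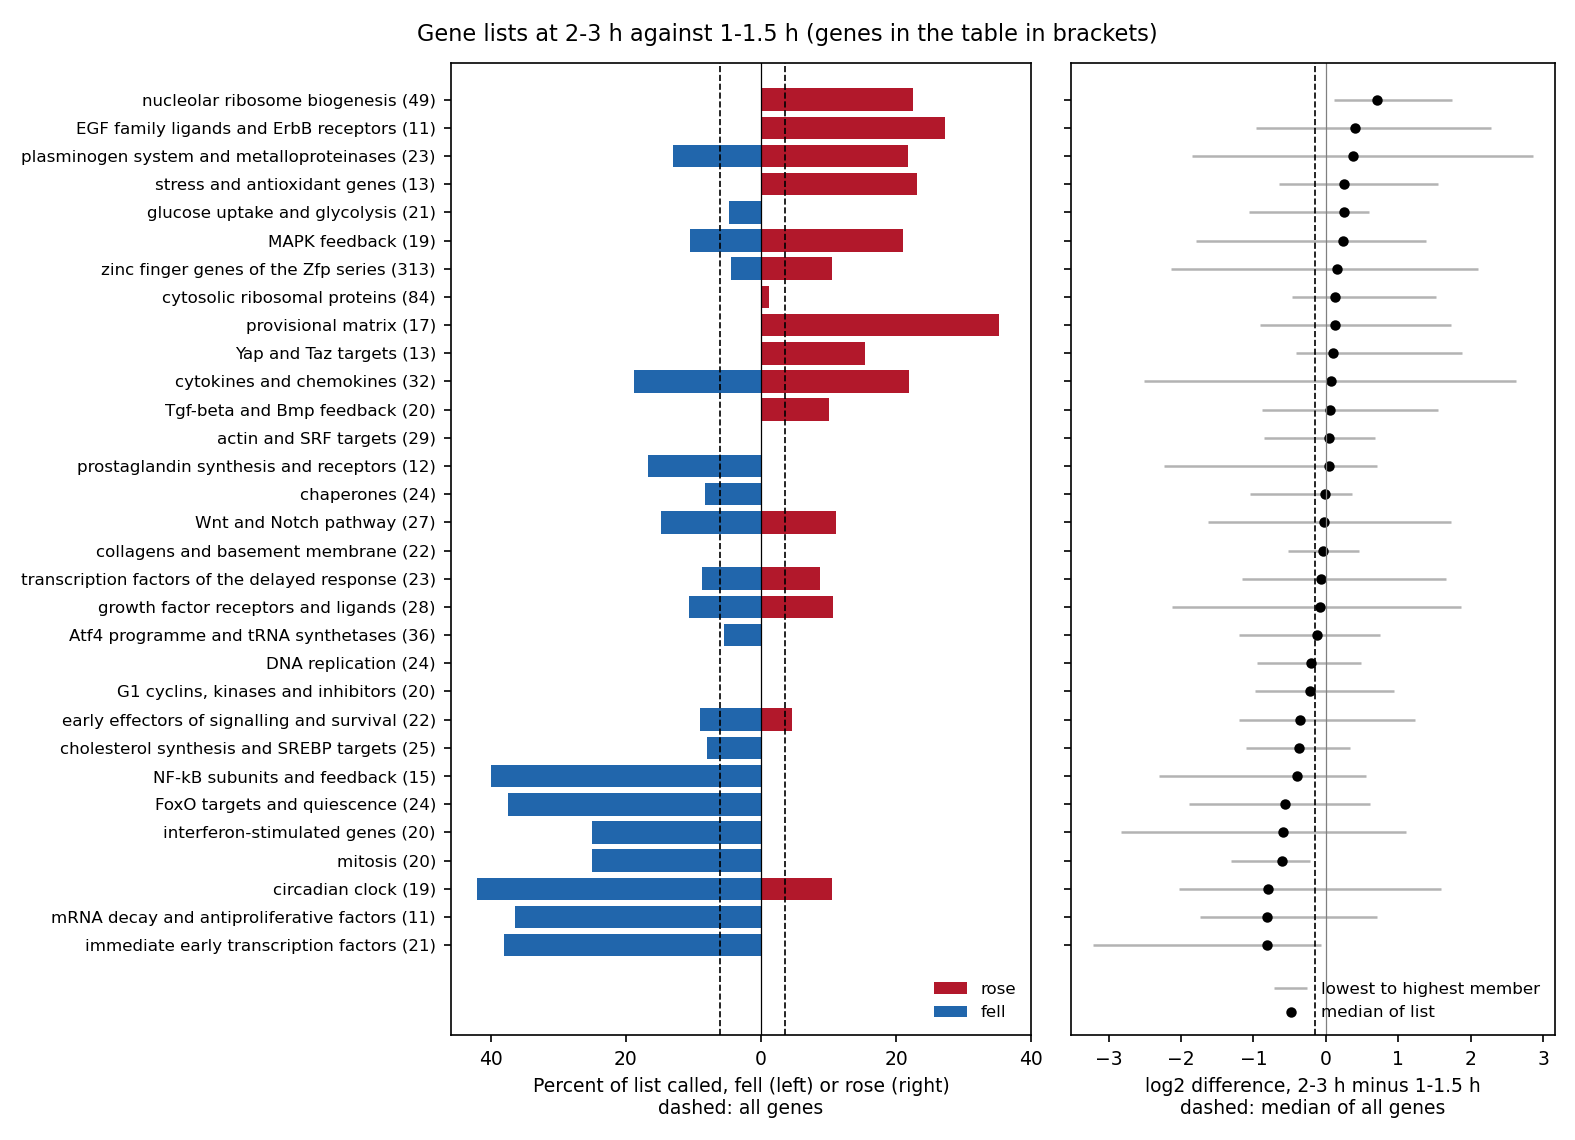
Left, the percent of each gene list that rose (red, to the right) or fell (blue, to the left) at 2-3 h against 1-1.5 h, with dashed lines at 3.59% and 6.13% for all genes. Right, the median log2 difference of each list (point) and its lowest and highest member (line), with a dashed line at -0.16 for all genes, where the nucleolar list has the highest median, 0.71, and the immediate early factors the lowest, -0.81.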

How the data were processed

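RNA-seq of serum-stimulated fibroblasts was analysed in 10 libraries (2, 2.5 and 3 h against 1 and 1.5 h of Cycles 1 and 2), with 4 starved libraries for the first wave. The deposited values are HOMER's normalized signal per gene. The submitters' processing notes and methods name CASAVA, STAR, HOMER and mm9, and versions are not given in the sources used here. The authors scaled each library to the same total. Whole reads were recovered on 12604 rows of 1 transcript (tolerance 0.1 read), and 3291 rows are averages over transcripts. Of 96 columns, 1 was not used. One symbol stands in more than 1 row.

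log2(value + 1) was fitted with limma 3.58.1 in R 4.3.3, with hours as levels and Cycle as a block (4 residual degrees of freedom), without a filter on low values. Of the called genes, 341 had a mean under 10. A gene was called at an adjusted p (Benjamini-Hochberg over 15895 genes) under 0.05 and a difference above 1 in size. Cycles as blocks were checked by the correlation of their deviations between hours, 0.64 to 0.89 over 10 pairs of hours. edgeR 4.0.16 was run on recovered reads. Figures used Python 3.11.15 and matplotlib 3.10.9.

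The genes named were the 12 largest rises and falls with a mean of at least 50, the 8 largest anew each way, and up to 4 called genes of each list. The members and lists were chosen with earlier results of these data known. Gene coordinates are from NCBIM37 and promoters from RefSeq on GRCm38.p6. Depth sets counting error only. A few list members are not reported here.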

Additional observations from a re-analysis of the deposited data

Results flagged for a closer look

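In 5 of 220 groups of values 1 library lay far from the others of its side. Chance gives about 1 in 20 groups of replicates. The libraries of a side are different hours of the 2 Cycles, so that rate does not apply to them. Cry2 was 699 at 1 h of Cycle 1, with 323 to 362 in the other early libraries. Ctgf was 4946 at 1 h of Cycle 1, with 6461 to 6618 in the others. Hspa1a was 82.7 at 1 h of Cycle 1, with 38.3 to 42.6 in the others. Dusp4 was 2428 at 3 h of Cycle 1, with 2800 to 2952 in the other late libraries. Usp18 was 197 at 2 h of Cycle 1, with 63.9 to 91.6 in the others. The cause was not tested.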

How the results depend on the processing

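No gene was called in opposite directions by the main fit and by another setting, which counts only genes called in both. Among the 110 genes checked, no called difference changed its sign. The counts of rises and falls were 323 and 425 with a pseudocount of 10, 321 and 444 among genes with a mean of at least 50, 2176 and 4726 by adjusted p alone, 869 and 1606 for 3 h alone, and 272 and 462 against 1.5 h alone, by limma. Cycle 1 alone gave 1 rise and 0 falls and Cycle 2 alone 0 and 0, with 4986 and 4773 genes at an unadjusted p under 0.05. In the first wave the counts were 346 and 450 with a pseudocount of 10 and 335 and 315 among genes with a mean of at least 50. Leaving out 1 library gave 436 to 706 rises and 663 to 1198 falls. The Cycles pair the libraries, and without the replicate block 411 genes rose and 674 fell, and 23 of the 110 genes checked lost their call. Against 1.5 h alone 39 of the 110 lost their call. Rows of 1 transcript and the -1 h baseline were chosen after seeing the data. The cause of these shifts was not tested.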
